A study of Mus musculus with 12 samples.

Results

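The genes of purine, pyrimidine and folate metabolism were followed in sorted murine stem and progenitor cells in which BCR::ABL1 was switched on or kept off. They comprise 35 genes of the 56748 in the count tables, chosen by name for their enzymatic step and matched to the tables by Ensembl identifier, and all 35 passed the filter on low counts. Donor bone marrow (BM) came from SCLtTA/BCR-ABL (DTG) mice, in which the SCL regulatory sequence drives a transactivator in primitive haemopoietic cells, so that human BCR-ABL1 is transcribed there once tetracycline (TET) is withdrawn. CD45.2 donor cells from a frozen pool of many DTG mice were transplanted into irradiated CD45.1 B6.SJL recipients aged 8 to 12 weeks, so the replicates are separate samples that share a donor source. All recipients drank TET for the first 2 weeks. The 6 CTRL samples stayed on TET, the 6 CML 2wk samples then had 2 weeks without it, and CD45.2+Lin-Sca+Kit+ BM cells were sorted from both for bulk RNA-seq. The labels give Male for every CTRL and Female for every CML 2wk sample, while the study's methods describe recipients and pooled donors of both sexes. A sex difference and the group difference cannot be told apart, and Hprt, Prps1, Prps2 and Ctps2 are X-linked.

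Cells make purine nucleotides either de novo, by building the ring step by step on phosphoribosyl pyrophosphate (PRPP) up to inosine monophosphate (IMP), or by salvage, in which a free base or nucleoside is turned back into a nucleotide. Pyrimidines are first built as orotate and joined to PRPP to give uridine monophosphate (UMP), and folate enzymes carry the one-carbon units that purine and thymidylate synthesis consume. Stem and progenitor cells that enter the cell cycle draw on both routes for RNA and DNA synthesis, and inherited loss of Hprt, Ada or Pnp is known for disease in humans.

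CTRL libraries held between 22804754 and 41832868 counts on genes and CML 2wk libraries between 16150817 and 25070105, and the members had between 108 and 20345 counts in any library. Levels below are in CPM, counts relative to a library's total after scaling with TMM factors, and a gene is called higher or lower when its Benjamini-Hochberg adjusted p from edgeR's quasi-likelihood test, over 18438 genes, was under 0.05. All 10 stem and progenitor genes listed (Kit, Ly6a, Cd34 and others) had counts in every library. So did all 9 granulocyte markers listed, so counts above 0 do not identify the sorted cells. Of the 10 stem and progenitor genes 8 fell and 1 rose (sums of 2864 to 3268 CPM in CTRL and 1672 to 2135 in CML 2wk), and Kit dropped from a median of 745 to 418 CPM. Mast cell and basophil markers rose for 6 of 8, with a summed level of 78.3 to 170 CPM in CTRL and 406 to 2370 in CML 2wk, and monocyte markers rose for 4 of 8, with sums of 373 to 631 and 608 to 1300 CPM. Among erythroid markers 7 of 8 fell, and Tfrc, the transferrin receptor, rose (sums of 218 to 302 and 287 to 658 CPM). Megakaryocyte markers fell for 5 of the 5 tested (sums of 335 to 419 and 105 to 269 CPM). Granulocyte markers went both ways (4 rose, 4 fell; sums of 2321 to 4659 and 3115 to 8541 CPM), B cell markers fell for 2 of 8 (33 to 133 and 26.3 to 105 CPM), and T and NK markers rose for 2 and fell for 2 of the 6 tested (75 to 99.1 and 86.6 to 192 CPM). Stromal markers were called higher for 3 of the 5 tested, but their sum was high only in CML 2wk replicates 2 and 4 (760 and 311 CPM). In the other CML 2wk libraries the sum was 63.8 to 84.2 CPM, against 69.7 to 100 CPM in CTRL. No listed marker was at 0 in every library of a group. The part of this change in cell content in the results below was not tested, and in bulk samples fewer cells of a type and less RNA per cell cannot be told apart.

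Of the 35 members, 23 were higher and 5 lower in CML 2wk, against 30.6% and 29% of all genes tested. The median log2 fold change was 0.44 over the members (range −0.87 to 1.35) and 0.07 over all genes. Summed over the members, the level was 3986 to 4774 CPM (median 4652) in CTRL and 5104 to 5980 CPM (median 5213) in CML 2wk, without overlap. For 21 members every CML 2wk library lay above every CTRL library, and for 3 (Pfas, Cad and Samhd1) every one lay below, against 17% and 20.6% of all genes. By role, all 3 purine salvage enzymes and all 5 nucleotide kinases rose, and the 2 pyrimidine and deoxynucleoside salvage enzymes were not called. Of the 15 de novo purine and pyrimidine enzymes 8 rose, 3 fell and 4 were not called, with a median log2 fold change of 0.27. For the 5 salvage enzymes of both kinds the median was 0.60. The difference between de novo and salvage enzymes was not tested. With a trend of fold change with gene length removed, 11 of the 15 de novo enzymes rose and 3 fell, and 4 of the 5 salvage enzymes rose. With a trend with GC content removed, Adk among the salvage enzymes and Cmpk1 among the kinases were no longer called.

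**Figure D1:**
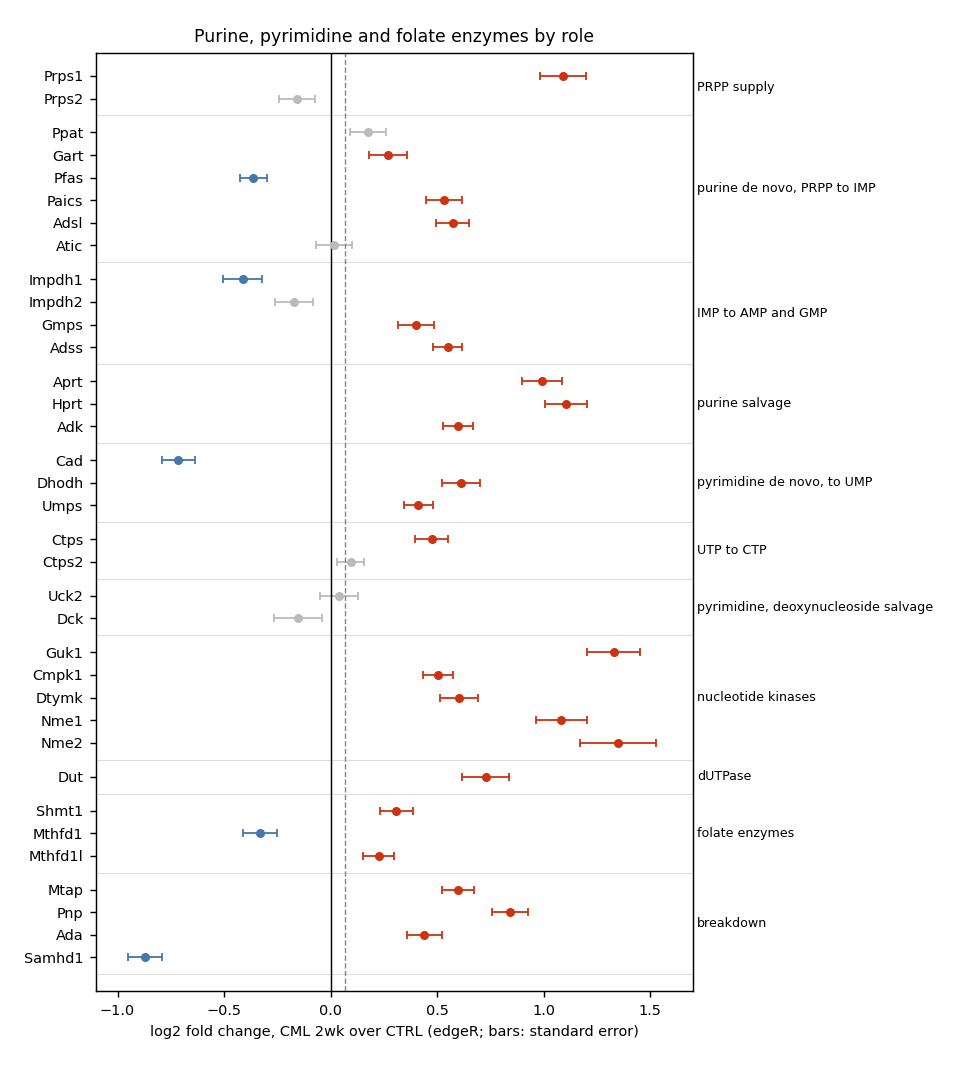
Log2 fold change (CML 2wk over CTRL; points) with its standard error from edgeR (bars) for the 35 members, grouped by role. Red points are called higher (23), blue lower (5) and grey not called (7), and the dashed line is the median of all genes tested (0.07); purine salvage and the nucleotide kinases lie wholly to the right, whereas the de novo steps lie on both sides.

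De novo synthesis and the salvage of free bases use PRPP, made by the synthetases Prps1 and Prps2, and 1 of the 2 paralogues rose. Prps1 lay between 55.8 and 71.4 CPM (median 65.7) in CTRL and between 115 and 184 CPM (median 129) in CML 2wk, with no overlap. This was a 2.13-fold increase (log2 1.09, SE 0.11, adjusted p = 1.03e-06). Prps2 was at 118 to 160 CPM (median 150) in CTRL and 114 to 146 CPM (median 133) in CML 2wk, overlapping ranges, and its log2 difference of −0.16 (SE 0.08) did not pass the test (adjusted p = 0.117). Prps2 was called lower when CTRL replicate 2 was left out (−0.21) and with the GC trend removed (−0.39). The log2 ratio of Prps2 to Prps1 CPM within a library, which is not corrected for gene length, was 1.08 to 1.26 in CTRL and −0.47 to 0.16 in CML 2wk, and the groups did not overlap. The 6 CTRL ratios sat close together and the 6 CML 2wk ratios spread from below to above 0. In per-length terms Prps1 and Prps2 were near each other in CTRL (medians of 32.9 and 38.8 CPM per kb of exon). Of the 50-base stretches of Prps1, 9.93% also occur in the Prps1l3 gene.

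**Figure D2:**
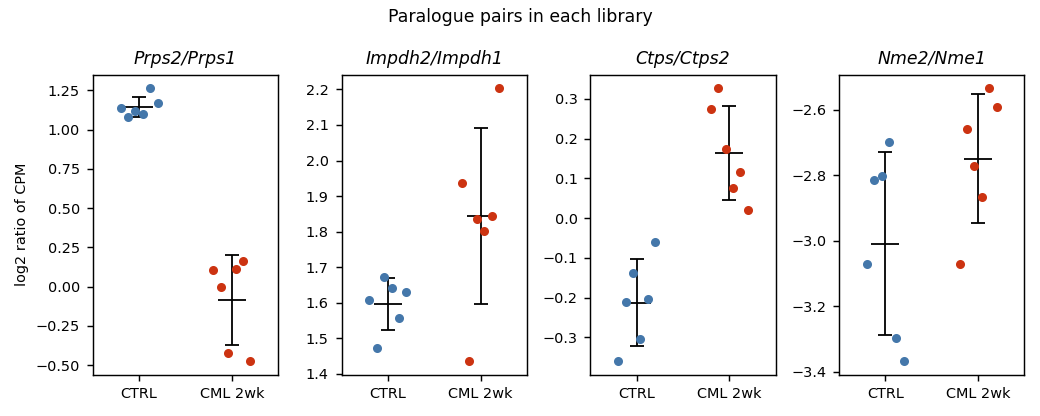
Log2 ratio of CPM between paralogues in each library (points), with the mean and SD of 6 libraries per group (bars); the vertical scales differ between panels. The Prps2/Prps1 ratio falls from a median of 1.13 in CTRL to 0.05 in CML 2wk without overlap and Ctps/Ctps2 rises without overlap, whereas Impdh2/Impdh1 and Nme2/Nme1 overlap between groups.

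The promoters of the paralogues and of the head-to-head gene pair Ppat and Paics, which encode enzymes of the same pathway, are shown because Paics and Prps1 were called and Ppat and Prps2 were not. Whether the genes of a pair differed in their change was not tested. The sequences are RefSeq GRCm38.p6 windows of 300 bases, from 250 before to 50 after the gene's start, on the gene's strand, and capitals mark the letters CACGTG (the E-box that Myc and related factors can bind) or TTTCCCGC and TTTGGCGC on either strand (E2F-type sites). Ppat and Paics start 276 bases apart on opposite strands, each is transcribed through the start of the other, and their windows share 0 bases. By GENCODE M21, 6.15% of the exons of Ppat and 8.67% of those of Paics lie antisense to each other, and with the strand setting unknown, reads from these stretches cannot be told apart.
Paics (chr5:76951052-76951351, plus strand): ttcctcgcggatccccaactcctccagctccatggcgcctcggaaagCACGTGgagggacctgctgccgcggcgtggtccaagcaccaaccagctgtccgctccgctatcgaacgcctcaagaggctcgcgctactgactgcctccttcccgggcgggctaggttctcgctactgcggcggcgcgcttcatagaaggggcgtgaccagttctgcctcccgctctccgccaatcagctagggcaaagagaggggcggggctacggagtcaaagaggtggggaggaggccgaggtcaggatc
Ppat (chr5:76951529-76951828, minus strand): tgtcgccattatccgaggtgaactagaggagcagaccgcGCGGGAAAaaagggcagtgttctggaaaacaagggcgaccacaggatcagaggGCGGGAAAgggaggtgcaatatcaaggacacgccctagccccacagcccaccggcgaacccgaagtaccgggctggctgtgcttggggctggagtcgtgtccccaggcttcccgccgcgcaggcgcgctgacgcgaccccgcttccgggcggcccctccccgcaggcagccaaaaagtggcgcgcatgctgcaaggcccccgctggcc
Prps1 (chrX:140456353-140456652, plus strand): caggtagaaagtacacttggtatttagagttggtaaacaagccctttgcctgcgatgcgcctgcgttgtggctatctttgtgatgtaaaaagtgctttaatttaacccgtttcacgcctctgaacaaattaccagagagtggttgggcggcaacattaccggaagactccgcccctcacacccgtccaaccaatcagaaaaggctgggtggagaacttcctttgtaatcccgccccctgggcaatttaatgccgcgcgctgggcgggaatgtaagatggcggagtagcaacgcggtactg
Prps2 (chrX:167382700-167382999, minus strand): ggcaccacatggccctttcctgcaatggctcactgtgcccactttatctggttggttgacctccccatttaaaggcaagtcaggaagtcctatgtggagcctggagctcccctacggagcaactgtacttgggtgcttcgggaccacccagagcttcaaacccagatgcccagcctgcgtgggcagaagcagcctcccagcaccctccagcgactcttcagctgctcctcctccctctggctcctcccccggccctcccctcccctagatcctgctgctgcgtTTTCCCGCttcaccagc
Windows were at hand for 33 of the 35 members. CACGTG was in 5 of them (15.2%; Paics, Atic, Impdh2, Dtymk and Nme1), against 8.09% of all 27025 genes with a window, and an E2F-type word in 2 (6.06%; Prps2 and Ppat, the latter with 2 copies), against 1.8%. The 5 members with CACGTG had log2 fold changes of 0.53 (Paics), 0.01 (Atic), −0.17 (Impdh2), 0.60 (Dtymk) and 1.08 (Nme1), so members with this word were among the higher and the uncalled genes. Ppat and Prps2 were both uncalled. These matches describe the windows only. Myc itself was at 298 to 360 CPM (median 321) in CTRL and 260 to 364 CPM (median 300) in CML 2wk, and its log2 difference of −0.09 (SE 0.08) did not pass the test (adjusted p = 0.36).

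The steps from PRPP to IMP held 3 members that rose, 1 that fell and 2 that were not called. Ppat, which commits PRPP to purine synthesis, was at 117 to 149 CPM (median 139) in CTRL and 136 to 183 CPM (median 148) in CML 2wk, and with a log2 difference of 0.18 (SE 0.08) was not called (adjusted p = 0.0793). Ppat was called higher without CML 2wk replicate 3 (0.21) and without CML 2wk replicates 2 and 4 (0.23). The same held with upper-quartile factors (0.25), a filter of CPM of at least 1 in 6 libraries (0.22) and the length trend removed (0.28). Gart, a protein with 3 enzyme activities in this route, rose from a median of 189 (158 to 197) to 214 CPM (189 to 273), with overlapping ranges (log2 0.27, SE 0.09, adjusted p = 0.0167). Of the exons of Gart, 19.7% lie antisense to the gene Gm15964. Whether Gart and Ppat differed in their change was not tested. Pfas, the amidotransferase between the Gart activities, went the other way. It was at 220 to 270 CPM (median 250) in CTRL and at 181 to 212 CPM (median 193) in CML 2wk, so that every CML 2wk library was below every CTRL library (log2 −0.36, SE 0.06, adjusted p = 0.00022). Paics, which carries out the carboxylation and the addition of aspartate that follow, had the highest level per length of all members in CTRL (147 CPM per kb) and rose from 384 to 498 CPM (median 462) to 574 to 761 CPM (median 650), without overlap (log2 0.53, SE 0.08, adjusted p = 7.03e-05). Adsl, which acts both here and in the making of AMP, rose from 84.8 to 99.8 CPM (median 94.9) to 121 to 166 CPM (median 136; log2 0.57, SE 0.08, adjusted p = 1.76e-05). Its groups were apart as well. Atic, which closes the ring to IMP, overlapped between groups, with CML 2wk replicate 1 above the CTRL range, at 163 to 205 CPM (median 196) in CTRL and 165 to 232 CPM (median 188) in CML 2wk (log2 0.01, SE 0.08, adjusted p = 0.893).

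From IMP the route divides towards AMP and GMP, and the GMP arm held members called in both directions while Adss of the AMP arm rose. Impdh1 and Impdh2 catalyse the rate-limiting step to GMP. Impdh1 fell from 92.5 to 110 CPM (median 99.3) to 66.5 to 95.8 CPM (median 70; log2 −0.41, SE 0.09, adjusted p = 0.00121), and only CML 2wk replicate 2, the highest of its group, reached into the CTRL range. Impdh2, the more abundant form (101 against 30.1 CPM per kb in CTRL), was at 262 to 328 CPM (median 311) and 238 to 320 CPM (median 256), and its log2 difference of −0.17 (SE 0.09) was not called (adjusted p = 0.103). It was called lower when CTRL replicate 2, CML 2wk replicate 1 or CML 2wk replicate 6 was left out (−0.22, −0.23 and −0.22). Part of this gene is shared with its pseudogene Impdh2-ps (39.3% of 50-base stretches), which itself was at 2.1 to 4.58 CPM. Gmps, the next enzyme of the GMP arm, rose from 152 to 183 CPM (median 180) to 202 to 273 CPM (median 222) without overlap (log2 0.40, SE 0.08, adjusted p = 0.000845). In the AMP arm Adss, which adds aspartate to IMP, rose from 155 to 192 CPM (median 179) to 234 to 293 CPM (median 258; log2 0.55, SE 0.07, adjusted p = 8.64e-06). All 6 CML 2wk libraries were above all 6 CTRL libraries for both Gmps and Adss.

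Purine salvage enzymes rose in all 3 cases. Hprt, which turns hypoxanthine and guanine into nucleotides, lay between 126 and 157 CPM (median 148) in CTRL and between 266 and 395 CPM (median 294) in CML 2wk, a 2.15-fold increase (log2 1.11, SE 0.10, adjusted p = 3.89e-07). Aprt, its counterpart for adenine, rose from 34 to 42.7 CPM (median 39.6) to 62.4 to 90.2 CPM (median 78.4), or 1.99-fold (log2 0.99, SE 0.09, adjusted p = 6.49e-07). Adk, which phosphorylates adenosine, rose from 58.9 to 70.1 CPM (median 65.4) to 92.2 to 117 CPM (median 94.9; log2 0.60, SE 0.07, adjusted p = 5.29e-06). The groups were apart for all 3 genes, and CML 2wk replicate 6 was the highest library for each of them. In contrast, neither salvage kinase for pyrimidine or deoxynucleosides was called. Uck2, which phosphorylates uridine and cytidine, was at 187 to 237 CPM (median 230) and 191 to 271 CPM (median 221; log2 0.04, SE 0.09, adjusted p = 0.709). Dck, which starts the salvage of deoxycytidine and other deoxynucleosides, was at 88.3 to 110 CPM (median 103) and 63.5 to 107 CPM (median 96.2; log2 −0.15, SE 0.11, adjusted p = 0.257). Both genes overlapped between the groups.

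**Figure D3:**
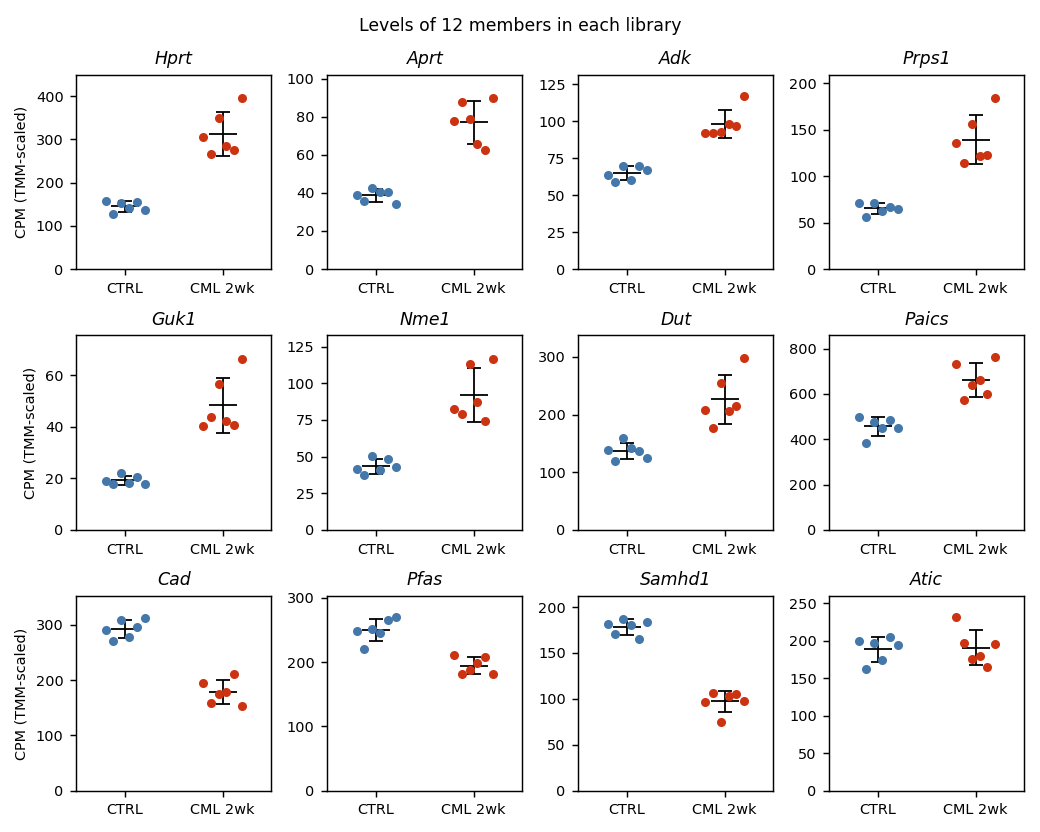
TMM-scaled CPM of 12 members in the 6 libraries of each group (points), with the mean and SD (bars); each vertical axis starts at 0. Hprt, Aprt, Adk, Prps1, Guk1, Nme1, Dut and Paics are higher in every CML 2wk library than in any CTRL library, Cad, Pfas and Samhd1 are lower in every one, and Atic overlaps.

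In pyrimidine synthesis the first enzyme fell and Dhodh and Umps, which act later, rose. Cad, the multifunctional protein that carries the opening steps, was at 271 to 311 CPM (median 293) in CTRL and at 153 to 210 CPM (median 176) in CML 2wk. It fell in all 6 libraries below the CTRL range, a change of −0.71 on the log2 scale (SE 0.08, adjusted p = 2.44e-06). Dhodh, the mitochondrial enzyme that makes orotate, rose from 24 to 27.6 CPM (median 25.2) to 32.6 to 44.5 CPM (median 39.8; log2 0.61, SE 0.09, adjusted p = 3.71e-05). It had the lowest level per length of the members in CTRL (3.99 CPM per kb). Umps, which converts orotate to UMP, rose from 101 to 122 CPM (median 116) to 133 to 163 CPM (median 153; log2 0.41, SE 0.07, adjusted p = 0.000118). Dhodh and Umps were apart between groups in the direction opposite to Cad. CTP is then made from UTP by the synthases Ctps and Ctps2. Ctps rose from 64 to 79.3 CPM (median 73.4) to 91.8 to 115 CPM (median 96.1; log2 0.47, SE 0.08, adjusted p = 0.000119), and Ctps2 was at 74.1 to 90.8 CPM (median 84.3) and 81.4 to 98.5 CPM (median 88.8) and was not called (log2 0.09, SE 0.06, adjusted p = 0.213). The log2 ratio of Ctps to Ctps2 was below 0 in each CTRL library (−0.36 to −0.06) and above 0 in each CML 2wk library (0.02 to 0.33).

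All 5 kinases that raise monophosphates and diphosphates rose without overlap. Guk1, the GMP kinase, went from 17.7 to 21.9 CPM (median 18.6) to 40.3 to 66.2 CPM (median 43), a 2.51-fold increase (log2 1.33, SE 0.12, adjusted p = 5.6e-07). Nme1, a nucleoside diphosphate kinase, rose from 37.3 to 50.6 CPM (median 42) to 74 to 117 CPM (median 85; log2 1.08, SE 0.12, adjusted p = 2.44e-06). Its paralogue Nme2 rose from 4.08 to 7.18 CPM (median 5.04) to 9.75 to 19.3 CPM (median 12.6; log2 1.35, SE 0.18, adjusted p = 1.53e-05), the largest log2 fold change of the members. The level of Nme2 is uncertain, since 48.9% of its exons lie on the same strand under the readthrough gene Gm20390, which had 0 counts in all 12 libraries, and 47% of its 50-base stretches occur in other genes. For Nme1 these shares were 12.5% and 11.1%. Cmpk1, which acts on UMP and CMP, rose from 103 to 123 CPM (median 118) to 143 to 192 CPM (median 163; log2 0.50, SE 0.07, adjusted p = 2.38e-05). Dtymk, the thymidylate kinase, rose from 103 to 117 CPM (median 108) to 139 to 199 CPM (median 161; log2 0.60, SE 0.09, adjusted p = 3.36e-05). Dut, which removes dUTP and so keeps uracil out of DNA, rose from 120 to 159 CPM (median 138) to 177 to 298 CPM (median 211; log2 0.73, SE 0.11, adjusted p = 5.62e-05). CML 2wk replicate 6 was the highest library for Guk1, Nme1, Nme2, Cmpk1 and Dut.

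The folate enzymes moved by smaller amounts and in both directions. Shmt1, which takes a one-carbon unit from serine in the cytosol, rose from 64.9 to 85.9 CPM (median 78.1) to 88 to 108 CPM (median 95.4; log2 0.31, SE 0.08, adjusted p = 0.00292). Its groups did not overlap. Mthfd1, the cytosolic trifunctional enzyme that supplies the formyl group for purines, fell from 133 to 162 CPM (median 160) to 107 to 142 CPM (median 118; log2 −0.33, SE 0.08, adjusted p = 0.00205). Mthfd1l, which releases formate in mitochondria, was at 114 to 134 CPM (median 129) in CTRL and 128 to 169 CPM (median 148) in CML 2wk (log2 0.23, SE 0.07, adjusted p = 0.0164). The ranges of Mthfd1 and Mthfd1l overlapped, and the call of Mthfd1l was lost when replicate 6 of both groups was left out (log2 0.21).

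Among the genes that break nucleosides or deoxynucleotides down, 3 rose and 1 fell. Pnp, the phosphorylase that splits purine nucleosides, rose from 33.6 to 43.1 CPM (median 37.4) to 58.1 to 78.2 CPM (median 67.7; log2 0.84, SE 0.08, adjusted p = 1.05e-06). Of its exons, 18% lie under the gene Gm49342, which had 0 counts in all 12 libraries, and 8.95% lie antisense to annotated exons. Of the 50-base stretches of Pnp, 18.9% occur in other genes, Gm49342 and Pnp2 among them. Mtap, which releases adenine from methylthioadenosine, rose from 62.1 to 78.6 CPM (median 71.2) to 96.4 to 120 CPM (median 102; log2 0.60, SE 0.07, adjusted p = 8.14e-06). Ada, the adenosine deaminase, rose from 23.2 to 30.5 CPM (median 26.8) to 31.1 to 39.2 CPM (median 36.2; log2 0.44, SE 0.08, adjusted p = 0.000323). Samhd1, which hydrolyses deoxynucleoside triphosphates, had the largest decrease of the members. It was at 165 to 187 CPM (median 181) in CTRL and 75 to 107 CPM (median 100) in CML 2wk, 1.83-fold higher in CTRL (log2 −0.87, SE 0.08, adjusted p = 4.13e-07), and no library of either group fell in the range of the other.

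The libraries of a group differed along the whole list. CTRL replicate 2 was the lowest CTRL library for 28 of the 35 members, and the mean log2 CPM of the members, less each gene's CTRL mean, was −0.17 in it and −0.05 to 0.10 in the other CTRL libraries. The same mean was 0.28 to 0.50 in the CML 2wk libraries. CML 2wk replicates 1 and 6 were the highest of their group for 14 and 15 members, and by role they divided. Replicate 1 was highest for 4 of the 6 members from PRPP to IMP and for all 3 folate enzymes, and replicate 6 for all 3 purine salvage enzymes and 4 of the 5 kinases. In each CML 2wk library the mean of the purine salvage enzymes (0.73 to 1.17) lay above the mean of the members from PRPP to IMP (0.11 to 0.41). The SD of log2 CPM between libraries was larger in CML 2wk than in CTRL for 29 of the 35 members, as for 91.6% of all genes. The library numbers of replicates 1 to 5 ran separately in the 2 groups while replicate 6 of both groups had numbers close to each other. The study's methods do not say what these numbers record. In replicates 1 to 5 any difference in handling behind them cannot be told apart from the group difference. All 28 called members had the same direction in replicate 6 alone and in the other 5. They were called from these same libraries, and for the 21 higher and 3 lower members without overlap the direction was fixed in advance. Replicate 6 is also 1 library per group, so this does not test whether the numbering matters.

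**Figure D4:**
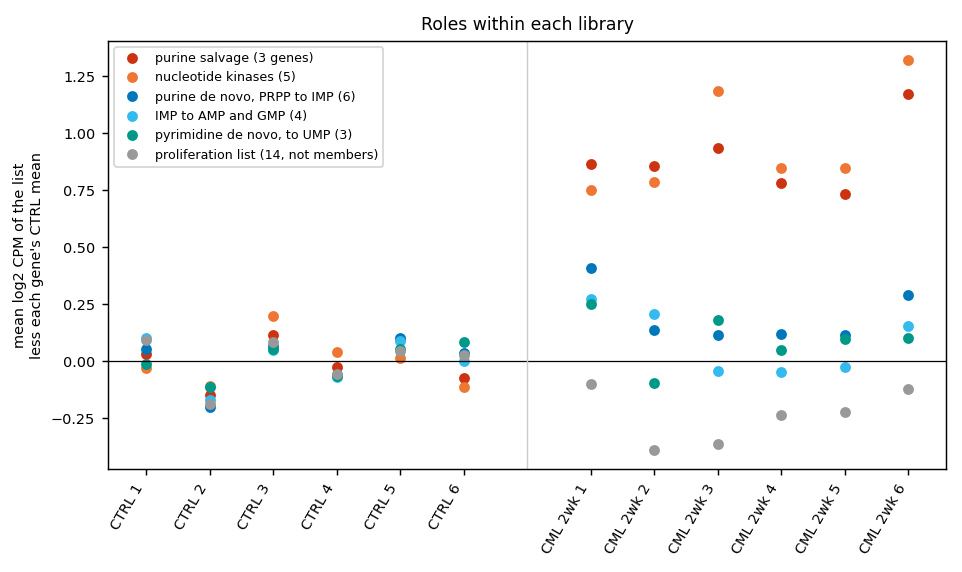
Mean log2 CPM of each role, less each gene's CTRL mean, in the 12 libraries. Purine salvage and the nucleotide kinases lie at 0.73 or above in each CML 2wk library and the 3 de novo roles plotted at 0.41 or below, while the proliferation genes, which are no members, lie below 0 in all 6 CML 2wk libraries.

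Fold changes followed gene length across all genes, and the members shared this trend. By deciles of summed exon length, the median log2 fold change of all genes went from 0.57 in the shortest to −0.27 in the longest, and Pearson's r between log2 length and log2 fold change was −0.27 across 17806 genes and −0.66 across the 35 members (genes are not independent replicates). The members that rose had a median exon length of 3342 bases and those that fell 7933. With the trend removed, which was chosen after seeing the data, 27 members were higher and 5 lower. Of all 17806 genes in that fit, 5066 were higher and 4770 lower. Hprt (log2 0.75), Aprt (0.70), Guk1 (1.07), Nme1 (1.06) and Prps1 (0.87) stayed higher, and Cad (−0.47), Samhd1 (−0.61), Impdh1 (−0.43) and Mthfd1 (−0.22) stayed lower. Pfas was no longer called (−0.12, adjusted p = 0.127 by edgeR), Impdh2 was called lower (−0.22), and Ppat (0.28), Atic (0.26), Ctps2 (0.22) and Uck2 (0.21) were called higher. Of the 15 de novo enzymes, whose median length was 4720 bases, 11 were higher and 3 lower with the length trend removed, with a median log2 fold change of 0.41 against 0.27 before. Of the 5 purine and pyrimidine salvage enzymes 4 were then higher and 0 lower, with a median of 0.70 against 0.60 before. A similar trend with GC content ran from a median of 0.44 in the decile of lowest GC to −0.37 in the highest. With it removed, likewise chosen later, 20 members were higher and 6 lower, and of all 17803 genes 5010 were higher and 5245 lower. Impdh1, Gmps, Adk and Cmpk1 then lost their calls, and Prps2 and Dck were called lower. The share of counts from mitochondrially encoded genes also differed, at 0.816% to 1.29% in CTRL and 2.26% to 2.97% in CML 2wk, and leaving these genes out of the library sizes changed no member's call.

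**Figure D5:**
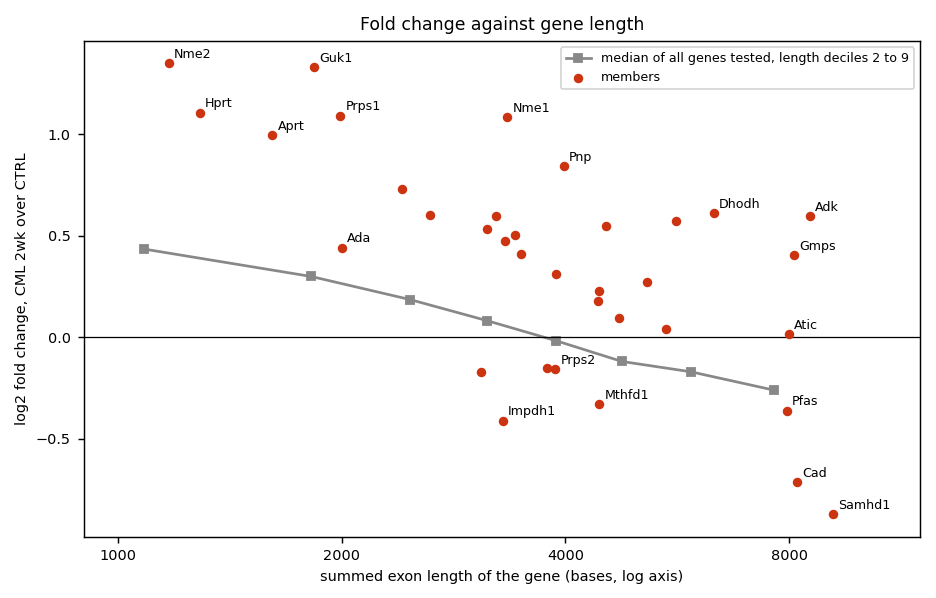
Log2 fold change (CML 2wk over CTRL) of the 35 members (red points) against summed exon length on a log axis, with the median of all genes tested in length deciles 2 to 9 (grey squares). The grey line falls from 0.43 to −0.26 with length; Hprt, Aprt, Guk1 and Nme2 are short and high, and Cad, Pfas and Samhd1 are long and low, whereas Adk and Gmps are long and higher.

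Genes of the same pathways outside the members were read from a list of 79, of which 67 were tested. In CML 2wk 32 of them were higher and 15 lower, against 30.6% and 29% of all genes tested. Their median log2 fold change was 0.23, against 0.07 over all genes. Ribonucleotide reductase makes deoxynucleotides from a large and a small subunit. The large subunit Rrm1 was at 395 to 495 CPM in CTRL and 384 to 579 CPM in CML 2wk and was not called (log2 0.02, SE 0.09, adjusted p = 0.843), but was called higher with the length trend removed (0.31, adjusted p = 0.0125). The small subunit Rrm2 rose from 118 to 159 CPM (median 144) to 207 to 296 CPM (median 233; log2 0.78, SE 0.10, adjusted p = 7.36e-06). The thymidylate synthase Tyms (log2 0.53, SE 0.12, adjusted p = 0.00194) and the thymidine kinase Tk1 (0.27, SE 0.08, adjusted p = 0.0111) rose with overlapping groups. Of the mitochondrial folate enzymes, Mthfd2 rose (log2 1.06, SE 0.29, adjusted p = 0.00548), with CML 2wk replicate 6 at 134 CPM against 44 CPM in the next library, and without that replicate its log2 fold change was 0.58 and still called. Shmt2 was not called (0.23, SE 0.14, adjusted p = 0.173). It was at 0.05 without CML 2wk replicate 6, and was called higher without CML 2wk replicates 2 and 4 (0.34, adjusted p = 0.0442) and with the GC trend removed (0.55, adjusted p = 0.00749). The largest decreases were those of the mitochondrial kinase Cmpk2 (log2 −1.20), the nucleoside transporter Slc29a3 (−0.95) and the AMP deaminases Ampd3 (−0.73) and Ampd2 (−0.72). The largest increases in the fit of all libraries were those of Nt5e (2.93), Pnp2 (1.94), the guanine deaminase Gda (1.79) and the serine enzyme Psph (1.36). Nt5e was at 2 to 3.17 CPM in CTRL and 2.17 to 80.3 CPM in CML 2wk, with the highest value in replicate 2, a library high in stromal markers, and without that replicate its log2 fold change was 1.35, below those of Pnp2 and Gda.

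Genes of cell division, listed for comparison, mostly fell. Of 14 proliferation genes 9 fell and 3 rose in CML 2wk (median log2 fold change −0.26), against 29% and 30.6% of all genes tested. Their summed level was 5280 to 6346 CPM in CTRL and 3765 to 4688 CPM in CML 2wk. Mki67, a marker of cycling cells, fell from 1436 to 1765 CPM (median 1595) to 485 to 718 CPM (median 615; log2 −1.38, SE 0.09, adjusted p = 4.27e-08). Mki67 had the largest decrease of the 14 genes. With 10061 bases of exon it lies in the longest decile of genes, whereas Rrm2, Dut and Dtymk have 2410 to 2771 bases. Rrm2, Dut and Dtymk rose in the libraries in which Mki67 fell and 3 of the 14 proliferation genes rose. Whether this bears on the members was not tested.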

How the data were processed

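Bulk RNA-seq of 12 libraries, 6 CTRL and 6 CML 2wk, was analysed from the counts per Ensembl gene that the authors deposited, which are raw and not normalized. The submitters' processing notes name FastQC 0.11.9, fastp 0.23.2, STAR 2.7.10a, featureCounts 2.0.1, DESeq2 1.36.0 and mm39/GRCm39, whereas the methods of the study name Trim Galore!, HISAT2, featureCounts and hg38. Strand setting, annotation release and treatment of reads with several matches are not given in the sources used here. Depth was 16150817 to 41832868 counts per library.

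Symbols (52125 of 56748 identifiers), exon lengths, shared 50-base stretches and overlaps came from GENCODE M21, and promoters from RefSeq GRCm38.p6, matched by identifier or symbol only. edgeR 4.0.16 (quasi-likelihood test, TMM, filterByExpr, group as the only term) in R 4.3.3 was fitted to all genes, calling genes at a Benjamini-Hochberg adjusted p under 0.05. The code was run on simulated data with few changed genes and the same dispersion in both groups. These data have many called genes and a larger spread in CML 2wk, so the simulation does not give their error rates. Plots used matplotlib 3.10.9 in Python 3.11.15. Alternatives were DESeq2 1.42.0, other size factors, filters, thresholds, a replicate block, libraries left out and, chosen after seeing the data, removal of trends with exon length or GC content. Log2 ratios used a prior count of 2. No 2 libraries agreed within sampling noise (lowest chi-square per degree of freedom 3.78).

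The members, their roles, the related list and the marker lists were chosen with earlier results of these data known. Text values are given for every member, and of the related list for Rrm1, Rrm2, Tyms, Tk1, Shmt2, Mthfd2 and the 4 largest changes each way with an adjusted p under 0.05 and a mean log2 CPM of at least 1. The values of 1 further gene of that list are not reported here. P-values measure the spread between these samples, which share a donor pool.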

Additional observations from a re-analysis of the deposited data

Results flagged for a closer look

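Over 128 groups of 6 values (members, named related genes, Mki67, Myc and role means), 8 had a library far from the rest by Dixon's criterion, and chance alone gives about 1 in 20, or 6.4. Among the members, Adk in CML 2wk replicate 6 (117 CPM, next library 98.2) and Samhd1 in CML 2wk replicate 3 (75 CPM, next 97.1) stood apart, in both cases in the direction of the group's change. In the related genes CML 2wk replicate 6 was far above the others for Mthfd2 (134 CPM, next 44) and for Psph (95.2 CPM, next 48.7), and CML 2wk replicate 2 was low for Tk1 (85.6 CPM, next 115) and high for Nt5e (80.3 CPM, next 12.5). In CTRL, replicate 3 was highest for Psph (21.9 CPM, next 20), and replicate 2 was lowest for the mean log2 CPM of Uck2 and Dck, less the CTRL mean (−0.21, next −0.0092).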

How the results depend on the processing

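The counts of members called ranged from 20 to 27 higher and 5 to 7 lower over all alternatives, with a median log2 fold change of 0.333 to 0.519, the lowest median being that with the GC trend removed (0.333, a larger shift than the spread between libraries). Leaving out each library in turn gave 23 to 24 higher, 5 to 7 lower and a median of 0.400 to 0.477. The related list had 28 to 37 higher and 10 to 18 lower (31 to 35 and 13 to 18 with libraries left out). DESeq2's test and its size factors changed no member's call. Upper-quartile factors moved the median of all genes from 0.07 to 0.14 and the calls over all genes to 6352 higher and 4752 lower, from 5637 and 5339, and added Ppat and Ctps2 to the members called higher. Removing the GC trend cost Impdh1 (−0.056), Gmps (0.060), Adk (0.19) and Cmpk1 (0.17) their calls and added Prps2 (−0.39) and Dck (−0.35) as lower. Without a filter Gart and Mthfd1l lost their calls. The cause of these changes was not tested.

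Signs turned only for genes that were not called. Without a filter Atic was −0.056, Uck2 −0.030 and Rrm1 −0.046. With the GC trend removed Ctps2 was −0.0798, Rrm1 −0.159 and Myc 0.045. With single libraries left out Atic ranged from −0.051 (without CML 2wk replicate 1) to 0.051 and was also below 0 without CTRL replicate 2 or 4 or CML 2wk replicate 2 or 6. Uck2 ranged from −0.018 (without CML 2wk replicate 1) to 0.085 and was also below 0 without CTRL replicate 2. Rrm1 ranged from −0.0465 (without CML 2wk replicate 1) to 0.075 and was also below 0 without CTRL replicate 2 or CML 2wk replicate 2.

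The study does not say whether the replicate numbers pair the samples. Deviations of same-numbered libraries correlated at −0.13 to 0.07, and 1 of 6 matched its own number best, which cannot show whether samples were handled together. With the replicate block 23 members were higher and 5 lower (median 0.443), and 31 and 14 of the related genes, and no member's call changed.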

Other observations

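The supply of serine and glycine, from which folate takes its one-carbon units, was read from 7 listed genes. Of these 6 were tested and 5 rose without overlap between the groups, against 17% of all genes tested. Phgdh, the first enzyme of serine synthesis, rose from 157 to 197 CPM (median 181) in CTRL to 236 to 404 CPM (median 263) in CML 2wk (log2 0.68, SE 0.12, adjusted p = 0.000198 by edgeR), and Psat1, the next enzyme, from 138 to 170 CPM (median 160) to 252 to 645 CPM (median 320; log2 1.19, SE 0.18, adjusted p = 6.4e-05). Gcsh (log2 0.88) and Dld (1.09), subunits of the glycine cleavage system, rose as well, the latter being also a subunit of the pyruvate dehydrogenase complex. The other listed subunits did not rise by test. Amt was not called (log2 −0.29, SE 0.22, adjusted p = 0.27 by edgeR), and Gldc was too low to be tested (median 0.127 CPM in CTRL and 1.31 CPM in CML 2wk). CML 2wk replicate 6 was the highest library for Phgdh, Psat1, Psph, Gcsh and Dld. Of the 6 related salvage genes tested, 0 were higher and 2 lower by edgeR, against 30.6% and 29% of all genes tested. Phgdh, Psat1, Gcsh, Dld, Amt and Gldc were named after their values were seen.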
